A study of Mus musculus with 3 samples.

Results

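The cells described here were chosen by their own measured UMIs: they carried both Nkx1-2 and Sox2, and they were split by whether a UMI of T was counted in the same cell. Quality control left 22168 barcodes from 3 embryos, and 2520 of them held at least 1 UMI of Nkx1-2, at least 1 UMI of Sox2 and none of Noto, Foxj1, Foxa2 or Tbx6. Of these 2520 cells, 1105 had at least 1 UMI of T and are called T-positive, the gate for neuromesodermal progenitors, and 1415 had none and are called T-negative, the gate for caudal neural plate. The 3 embryos were wild-type male mice of the strain C57BL/6 x 129 SvEv, collected at E8.0 with 0 to 1 somite (one label field allows up to 2 somites). Extraembryonic tissue was cut away, each whole embryo was dissociated on its own, and each gave 1 droplet library. The samples used here hold no other genotype, treatment or age, so the comparison lies within embryos and the embryo is the replicate (n = 3 for each side).

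Neuromesodermal progenitors lie beside the node and in the caudal lateral epiblast, and they feed both the spinal cord and the paraxial mesoderm as the body axis lengthens. They are recognised by Sox2, a transcription factor of neural and pluripotent cells, together with T (Brachyury), a T-box factor needed for mesoderm formation, while Nkx1-2 marks the caudal epiblast and the newest neural plate. Fgf8 and Wnt3a signals hold the progenitor state and drive Cdx and posterior Hox genes, and loss of T with gain of Sox1 and Pax6 accompanies entry into the neural tube.

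The labels of the sides were checked against genes that the gate did not use. Cdx2, a homeobox factor of the caudal embryo, stood at 228 ± 37.6 CPM (UMIs per 1000000 UMIs of the sum; SD, n = 3) in T-positive and 153 ± 25.7 CPM in T-negative cells. In Otx2-bearing Sox2 cells without Nkx1-2 or T (the anterior neural gate, 1512 cells) Cdx2 stood at 14.5 ± 4.31 CPM. Otx2, a factor of forebrain and midbrain, went against a purely caudal label: a UMI of it was found in 26.1% to 42.0% of the T-positive cells of an embryo and in 28.1% to 36.9% of the T-negative cells. Its level was 37.7 CPM in T-positive and 51.3 CPM in T-negative cells, against 165 CPM in the anterior gate, where it was required. The sides are therefore named here by T and not by a cell type.

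T-positive cells were deeper. Their median was 33918, 21901 and 28134 UMIs in embryos 1, 2 and 3, against 30591, 17100 and 21935 in T-negative cells, a ratio of 1.11, 1.28 and 1.28. The sums per embryo and side held 7868131 to 17755690 UMIs. Median mitochondrial shares were 2.61% to 3.18% on the T-positive side and 2.59% to 3.14% on the T-negative side. Doublet scores among the top 6% of an embryo were found in 8.46%, 15.8% and 13.6% of T-positive and in 4.84%, 8.24% and 8.51% of T-negative cells, and these cells were kept. Libraries shared 18 to 22 barcodes per pair of embryos, of which 1 belonged to the gate in both embryos 1 and 2.

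**Figure D1:**
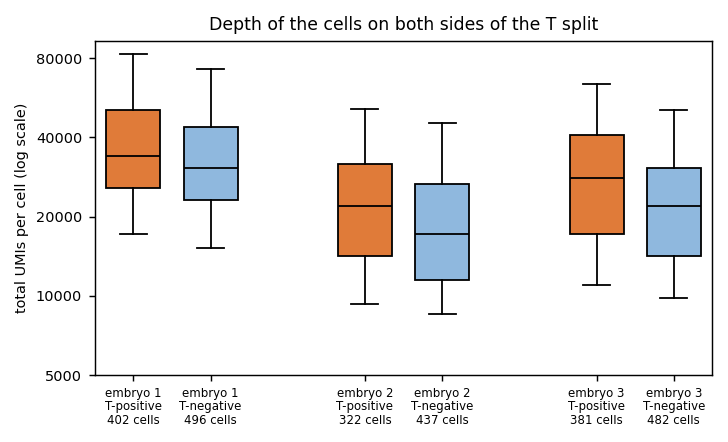
Total UMIs per cell (log axis) for the 6 sets of cells, with the box from the lower to the upper quartile, the line at the median and whiskers from the 5th to the 95th percentile of cells. In each embryo the median of the T-positive cells lies above that of the T-negative cells, by 1.11 to 1.28 times.

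The genes of the gate are given as a description, with no test. T stood at 96.8, 117 and 105 CPM in the T-positive sums and at 0 in the T-negative sums by construction. The split sits at a single molecule: 35.2% to 39.4% of the T-positive cells had exactly 1 UMI of T, just inside the threshold, while the T-negative cells just outside had 0. Nkx1-2 was at 173, 151 and 109 CPM on the T-positive side and 97.2, 127 and 96.1 CPM on the other. The ranges overlapped, but within each embryo the T-positive sum was the higher one. Nkx1-2 UMIs per cell were 6.84, 3.68 and 3.35 in T-positive and 3.48, 2.66 and 2.37 in T-negative cells. In each embryo exactly 1 UMI of Nkx1-2 was more frequent among T-negative cells, so the sides were not matched on this gene. Sox2 was at 102, 107 and 102 CPM in T-positive cells and at 125, 146 and 131 CPM in T-negative cells, with no overlap.

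T-negative is a statement about counts, not about absence of the transcript. Every quality-controlled barcode was thinned to 5000 UMIs and gated anew, which gave 64, 74 and 75 T-positive and 188, 199 and 180 T-negative cells. Of the latter, 41.5%, 24.1% and 31.7% had carried T before thinning. UMIs of Tbx6, Noto, Foxj1 or Foxa2 can be lost in thinning, so some of these cells may lie outside the first gate. The fits after thinning use the same cells. Cells deeper than 5000 UMIs made up all but 227 of the quality-controlled barcodes. T was also counted in cell types in which it is not known to be on. Whether its UMIs there came from free RNA, doublets or the cells themselves was not tested. A UMI of T was found in 3.49% and 7.04% of erythroid-gated cells of embryos 2 and 3 (630 and 199 cells, median 15757 and 17232 UMIs). In cardiac-gated cells it was found in 16.7%, 13.6% and 26.3% (132, 198 and 137 cells, median 30767, 16019 and 25141 UMIs), against 44.8%, 42.4% and 44.1% of the Nkx1-2 and Sox2 gate (median 31783, 19252 and 24347 UMIs). The exact 95% intervals of the cardiac shares reached at most 34.5%, and those of the gate began at 38.9% or higher. These intervals cover counting error over the cells of an embryo only. Cells are not replicates and T split the sides, so they are a description and not a test. A UMI of Nkx1-2, which the gate required, was found in 15.2%, 18.7% and 21.9% of the cardiac-gated cells of embryos 1, 2 and 3 and in 2.70% and 3.52% of the erythroid-gated cells of embryos 2 and 3.

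To ask which genes accompany T in cells gated on Nkx1-2 and Sox2, UMIs were summed per embryo and side. The 3 T-positive sums were compared with the 3 T-negative sums. Fgf8, Fgf4, Wnt3a and Wnt5b, which encode ligands, the targets Etv4, Spry4 and Sp5, and Mixl1 and Hes7 rose in T-positive cells, while Pou3f1, Sfrp1, Ptn and Nrcam fell. With the edgeR quasi-likelihood test 26 of 12343 genes passed an adjusted p of 0.05, 22 higher and 4 lower in T-positive cells (0.211%, 0.178% and 0.0324% of the genes tested). Both sums of an embryo come from the same animal, and with the embryo as a block 686 genes passed, 390 higher and 296 lower (5.56%, 3.16% and 2.40%), among them all 26. The share of calls that were higher was thus 84.6% without the block and 56.9% with it. DESeq2 with the block called 177 genes, all of them among the 686. Where a gene named below passed with the block in edgeR and not in DESeq2, this is said beside it. The 3 T-positive and 3 T-negative values did not overlap for 1109 genes (8.98%), with the T-positive values above for 602 (4.88%) and below for 507 (4.11%). Lack of overlap in a gene named below is therefore a description and not a test.

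The count without the block rested on all 3 embryos. It fell to 5 genes without embryo 1 and to 7 without embryo 2. Without embryo 3 it was 0, with 435 of 12456 genes at an unadjusted p under 0.05 (605 of 12343 with all embryos). Such p-values also arise where nothing differs, so this count does not show a remaining difference. With the block 521, 719 and 648 genes passed without embryos 1, 2 and 3, again with all 26 among them. These blocked fits leave very little to estimate spread from: the adjusted p of Fst went from 2.34e-13 with all embryos to 1.22e-185 without embryo 2 (edgeR). Their counts therefore do not show that the calls hold without an embryo. Cells matched on total UMIs within each embryo gave 59 genes, with all 26 among them, and 724 with the block. Without the cells of high doublet score 27 genes passed, 23 of them from the 25 of the 26 that could be tested. With at least 2 UMIs of Nkx1-2 required, 12 genes passed, 11 higher and 1 lower, all from the 25 of the 26 that could be tested. The other 13 did not pass there. Among them were Pou3f1, Sfrp1, Sp5, Spry4 and Wnt5b (adjusted p = 0.178, 0.124, 0.264, 0.130 and 0.0828, edgeR). Evx1os, Apln and Epha1 were among them too (adjusted p = 0.107, 0.145 and 0.246, edgeR). All 25 kept their direction. Below, a gene is said to rise or fall where it passed, and the fit is the one without the block unless the block is named. That fit leaves out that both sums of an embryo come from 1 animal. A gene that did not pass in it is therefore not shown to be equal on both sides. Fold changes are of T-positive over T-negative cells, on the log2 scale, with an SE worked back from the F statistic of the fit. Lists share genes, so their counts are not independent. The lists were also written with earlier results of these data known, so their counts and medians describe and do not test. Hes7 is on the Notch and presomitic lists, and Wnt3a on the Wnt and caudal regulator lists. Counts in lists are to be read beside the shares over all genes tested. These were 0.178% higher and 0.0324% lower without the block, and 3.16% and 2.40% with it.

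The FGF pathway opened the list of changes. FGFs are secreted ligands that act through receptor tyrosine kinases and ERK, with Etv factors, Sprouty and Dusp proteins among the targets. Fgf8 (chr19:45736798-45742915, mm10, minus strand), the chief FGF of the caudal epiblast, was at 59.2, 75.9 and 61.8 CPM in T-positive cells and at 14.7, 25.6 and 18.5 CPM in T-negative cells. The groups did not overlap, and Fgf8 rose by 1.76 ± 0.19 (3.39-fold, adjusted p = 0.0117). Fgf4, a ligand of the primitive streak, was at 4.84, 6.48 and 5.70 CPM against 0.620, 1.20 and 0.757 CPM and rose by 2.77 ± 0.27 (adjusted p = 0.0117). Fgf17, from the same subfamily as Fgf8, was at 15.7, 23.1 and 14 CPM against 1.91, 7.19 and 2.94 CPM. Its groups did not overlap either, but it passed with the embryo as a block (2.28 ± 0.16, adjusted p = 1.99e-09) and not without it (0.112). Fgf3 rose with the block by 0.50 ± 0.08 (adjusted p = 0.000384), but not in DESeq2 with the block (0.161).

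Etv4, an ETS factor induced by ERK and a target of FGF signalling, was at 78.4, 77.1 and 63.8 CPM against 22.7, 36.5 and 27.7 CPM, and rose by 1.35 ± 0.16 (adjusted p = 0.0166). Spry4, a feedback inhibitor, was at 17.1, 15.8 and 11.7 CPM against 5.97, 6.64 and 5.63 CPM and rose by 1.29 ± 0.16 (adjusted p = 0.0178). With the block Il17rd, Dusp6, Dusp4 and Etv5 rose as well, by 0.97 ± 0.08 for Il17rd and 0.68 ± 0.08 for the ERK phosphatase gene Dusp6. Spry2, Etv1 and Spred2 passed with the block in edgeR and not in DESeq2. Among the receptors, with the block Fgfr2 fell by 0.63 on the log2 scale (SE 0.09, 15.4 to 24.6 against 28.8 to 31.5 CPM) and Fgfr1 by 0.19 (SE 0.03), the latter not in DESeq2 (adjusted p = 0.136). Of the 25 listed FGF pathway genes that were tested, 4 rose and none fell without the block, 13 rose and 3 fell with it (9 and 2 in DESeq2 with the block), and the median was 0.51 beside -0.00031 over all genes tested.

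Among the genes that passed without the block Wnt3a had the largest fold change but for Sprr2a3, a gene at or under 2.30 CPM. It encodes a secreted activator of canonical Wnt signalling (chr11:59248033-59290752, minus strand). Wnt3a was at 17.4, 17.8 and 14 CPM in T-positive cells and at 1.18, 2.18 and 1.26 CPM in T-negative cells. The values lay far apart in every embryo, and the rise was 3.47 ± 0.22 (11.1-fold, adjusted p = 0.000676). Wnt5b, a ligand of the non-canonical branch, was at 31.1, 32.2 and 23.1 CPM against 10.9, 15.2 and 10.9 CPM and rose by 1.23 ± 0.17 (adjusted p = 0.0261). Wnt8a, by contrast, was at 56.1, 47.8 and 31.7 CPM against 54.0, 51.7 and 30.1 CPM. Its difference with the block was 0.01 ± 0.06, and its sign changed between fits. An approximate 95% interval from the normal distribution was -0.10 to 0.12, which may be too narrow with so few sums.

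Modulators, receptors and targets of Wnt were split. Rspo3, a secreted enhancer of Wnt signalling, was at 72.3, 104 and 93.4 CPM against 19.4, 33.8 and 39.5 CPM and passed with the block (1.58 ± 0.08, adjusted p = 3.44e-12), while its adjusted p without the block was 0.0573. Sp5, a zinc-finger target of canonical Wnt signalling, was at 113, 130 and 98.2 CPM against 40.4, 65.2 and 49.3 CPM and rose by 1.14 ± 0.17 (adjusted p = 0.0445). Sfrp1, a secreted antagonist, was at 59.1, 55.7 and 63.9 CPM against 97.0, 104 and 88.4 CPM and fell by 0.69 on the log2 scale (SE 0.09, adjusted p = 0.0202). With the block the receptor gene Fzd10 and the effector genes Lef1 and Tcf7 rose, and the receptor genes Fzd7 and Fzd2 fell. Notum and Axin2, targets that were higher, and Sfrp2 and the repressor gene Tcf7l1, which were lower, passed with the block in edgeR and not in DESeq2. Of 33 listed Wnt pathway genes that were tested, 3 rose and 1 fell without the block, 10 rose and 5 fell with it (8 and 3 in DESeq2 with the block), and the median was 0.12.

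**Figure D2:**
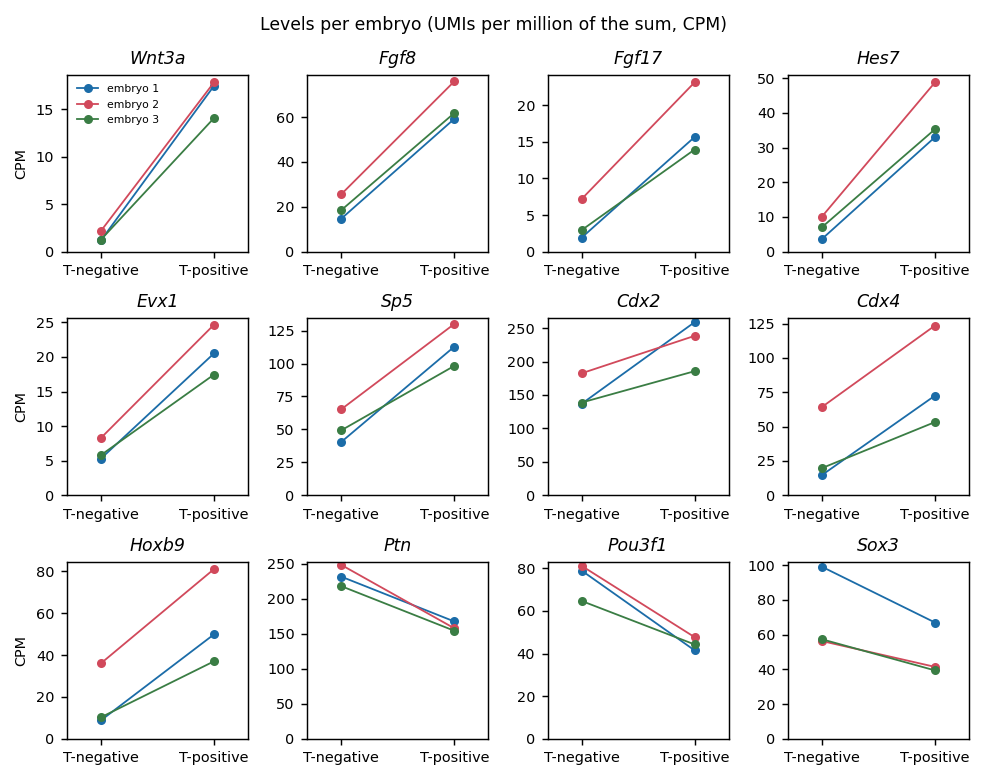
Level in each embryo (CPM of the summed UMIs, from 0) of 12 genes in T-negative and T-positive cells, with a line joining the 2 sums of 1 embryo. All lines rise for the genes from Wnt3a to Hoxb9 and fall for Ptn, Pou3f1 and Sox3, and for Cdx4 embryo 2 lies above the other embryos on both sides, with 64.3 CPM in its T-negative and 124 CPM in its T-positive cells.

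Promoter sequence is shown for Sp5 and Evx1, genes that rose and whose window held the letters of a known motif: CTTTGAT, which LEF and TCF factors bind, or TCACAC, the core of a T-box half-site. The sequences come from RefSeq (GRCm38.p6) and run from 250 bases before the start of the gene to the base before it, with the motif in capitals. Sp5 lies at chr2:70474673-70474922 and Evx1 at chr6:52313248-52313497, both on the plus strand.
Sp5: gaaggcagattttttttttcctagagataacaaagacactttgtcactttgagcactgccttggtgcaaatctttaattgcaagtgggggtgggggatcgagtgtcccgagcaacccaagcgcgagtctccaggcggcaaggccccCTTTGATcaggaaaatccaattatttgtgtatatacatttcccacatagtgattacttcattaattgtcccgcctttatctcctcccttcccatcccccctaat
Evx1: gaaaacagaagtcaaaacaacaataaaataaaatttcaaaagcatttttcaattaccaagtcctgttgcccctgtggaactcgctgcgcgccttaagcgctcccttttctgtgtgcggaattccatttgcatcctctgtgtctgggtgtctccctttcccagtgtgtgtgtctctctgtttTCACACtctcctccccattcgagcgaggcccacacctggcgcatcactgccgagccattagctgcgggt
The capitals begin 104 bases before the Sp5 start and 69 bases before the Evx1 start. Both strands were searched in windows from 250 bases before to 50 after each start. Of the 22 genes that rose, 15 had an entry, and CTTTGAT was found in 2 of them (Sp5 and Wnt5b) and TCACAC in 3 (Efna1, Lrp8 and Evx1). Counted by gene, the letters were found in 4.29% and 16.4% of all 27025 genes with an entry, and in 4.01% and 15.3% of the 274 such genes that rose with the block. A match is a run of letters and not a measured binding site.

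Evx1, a homeobox gene of the streak and caudal epiblast, was at 20.5, 24.7 and 17.4 CPM against 5.29, 8.28 and 5.80 CPM and rose by 1.71 ± 0.19 (adjusted p = 0.0122). Its antisense neighbour Evx1os rose by 2.48 ± 0.37, but the annotations overlap and the submitters' notes do not say how such reads were assigned. The Cdx factors activate posterior Hox genes. Cdx4 was at 72.5, 124 and 53.3 CPM against 14.7, 64.3 and 19.8 CPM. Embryo 2 had more Cdx4 on both sides, so the groups overlapped although every embryo was higher in T-positive cells. Cdx4 passed with the block (1.51 ± 0.13, adjusted p = 5.12e-08) and not without it (0.776).

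Cdx2 and Cdx1 differed less. Cdx2 was at 259, 238 and 186 CPM against 137, 182 and 139 CPM and rose with the block by 0.61 ± 0.06 (adjusted p = 3.58e-07). Cdx1 was at 466, 385 and 292 CPM against 259, 299 and 238 CPM and rose with the block by 0.53 ± 0.06 (adjusted p = 1.44e-06). In DESeq2 Cdx2 and Cdx1 passed without the block and not with it (adjusted p = 0.0936 and 0.158). Fst, a secreted antagonist of activin and BMP, was at 236, 258 and 220 CPM against 95, 126 and 114 CPM and rose by 1.09 ± 0.11 (adjusted p = 0.0117). Grsf1, an RNA-binding protein gene, was among the most abundant of the changed genes, at 656, 625 and 559 CPM against 299, 419 and 353 CPM (0.78 ± 0.12, adjusted p = 0.0482).

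Some caudal genes did not follow T. Hes3, a bHLH repressor, was at 25.9, 30.2 and 21.2 CPM against 35.3, 54.1 and 34.3 CPM and fell with the block by 0.64 on the log2 scale (SE 0.07, adjusted p = 1.27e-06). Cyp26a1, which degrades retinoic acid, was at 21.5, 22.8 and 20.8 CPM against 27.1, 17 and 21.1 CPM. Its difference with the block was -0.07 ± 0.10, and its sign changed between settings. Of the 20 listed regulators of neuromesodermal and caudal epiblast cells, 7 rose and none fell without the block, 15 rose and 1 fell with it (12 and 1 in DESeq2 with the block), and the median was 0.88.

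**Figure D3:**
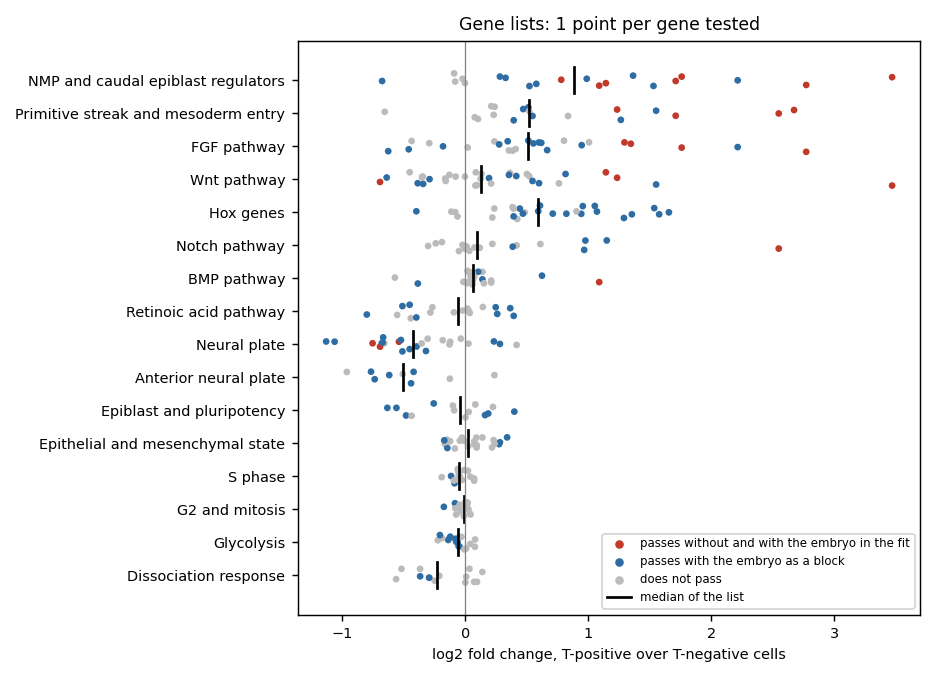
Log2 fold change of T-positive over T-negative cells for each gene tested in 16 lists, coloured by the fit in which the gene passed an adjusted p of 0.05, with a black bar at the median of a list. The caudal regulator list lies furthest to the right (median 0.88) and the anterior neural plate list furthest to the left (median -0.51), and the cell cycle lists lie near 0.

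Hox genes set position along the body axis, with the higher paralog groups used further back. Hoxb9 was at 49.9, 81.1 and 37.0 CPM in T-positive cells and at 8.79, 36.0 and 10.3 CPM in T-negative cells. The groups nearly touched, at 37.0 against 36.0 CPM. Hoxb9 rose with the block by 1.78 ± 0.13 (3.42-fold, adjusted p = 4.72e-09, against 0.461 without it). Hoxb8 was at 96.7, 149 and 77.7 CPM against 18.9, 82.4 and 27.2 CPM and rose with the block by 1.52 ± 0.14 (adjusted p = 1.02e-07). In both genes the T-negative cells of embryo 2 stood well above those of the other embryos.

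Hoxb1, an anterior paralog, differed less. It was at 111, 91.4 and 89.7 CPM against 76.0, 74.5 and 71.8 CPM and rose with the block by 0.41 ± 0.05 (adjusted p = 2.52e-06). Of 27 Hox genes tested out of 39 listed, none rose or fell without the block (edgeR, with 15 at an unadjusted p under 0.05 and 5 called by DESeq2). With the block 16 rose and 1 fell (9 and 1 in DESeq2 with the block), and the median was 0.59. By paralog group the median was 0.39 over 3 genes of group 1, 0.94 over 7 genes of groups 2 to 4, 0.65 over 14 genes of groups 5 to 9 and -0.06 over 3 genes of groups 10 to 13. The number that rose with the block was 2, 6, 8 and 0 in the same order. The genes of groups 10 to 13 were Hoxa10, Hoxa11 and Hoxa13 alone, of 12 listed. Hoxa11 and Hoxa13 were not tested after matching on total UMIs, so these groups are hardly covered. Hoxc8 rose with the block by 0.60 ± 0.15 (adjusted p = 0.0198), with embryo 2 highest on both sides, but not in DESeq2 with the block (0.913).

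**Figure D4:**
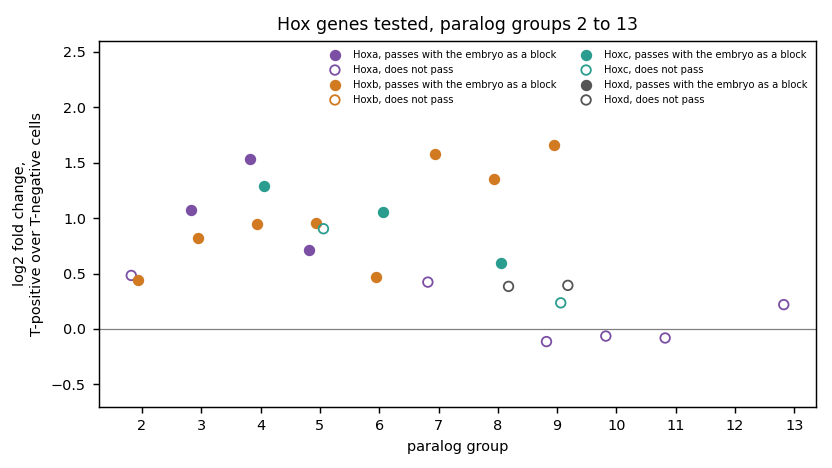
Log2 fold change of T-positive over T-negative cells for the Hox genes of paralog groups 2 to 13 that were tested, by group and cluster, with filled points for genes that passed with the embryo as a block. Hoxb7, Hoxb8 and Hoxb9 lie between 1.35 and 1.66. The 3 genes of groups 10 to 13 that were tested, Hoxa10, Hoxa11 and Hoxa13 of 12 listed, lie between -0.08 and 0.22.

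Cells with Tbx6 had been left out, and genes of mesoderm entry were read next. Mixl1, a homeobox gene of the streak, was at 4.28, 4.70 and 5.28 CPM against 0.507, 0.871 and 0.925 CPM and rose by 2.67 ± 0.28 (adjusted p = 0.0117). Hes7, a bHLH repressor that oscillates in the presomitic mesoderm, was at 33.0, 48.8 and 35.3 CPM against 3.66, 10.1 and 7.06 CPM and rose by 2.55 ± 0.30 (5.85-fold, adjusted p = 0.0158). Mesp1, an early mesoderm factor, rose with the block by 1.3 ± 0.14 (adjusted p = 5.58e-07). Msgn1, a factor of presomitic mesoderm, was under 1.2 CPM in every sum and was not tested. Of 18 listed streak genes tested, 4 rose and none fell without the block, 10 rose and none fell with it (7 and 0 in DESeq2 with the block), and the median was 0.52.

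Among the Notch genes, Dll3, a Delta family gene of the segmentation clock, rose with the block. It was at 7.42, 17 and 12.8 CPM against 4.28, 7.19 and 5.30 CPM (1.10 ± 0.13, adjusted p = 3.15e-06), and it passed in DESeq2 with the block too (0.000968). Dll1, a Notch ligand, differed by 0.90 ± 0.15 with the block (adjusted p = 0.00039 in edgeR and 0.0526 in DESeq2), and Nrarp, a feedback inhibitor of Notch, by 0.99 ± 0.19 (adjusted p = 0.00188 in edgeR and 0.423 in DESeq2). Hes5, the Notch target of neural progenitors, was at 3.21 to 5.72 CPM over the 6 sums and did not pass in either fit (adjusted p = 0.174 with the block). Of 18 Notch pathway genes tested, 1 rose without the block and 5 with it (2 in DESeq2 with the block), none fell in either, and the median was 0.10.

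Of the 10 presomitic markers 8 were tested, of which 1 rose without and 4 with the block (3 in DESeq2 with the block), none fell, and the median log2 fold change was 0.63. Their summed level was 110 to 255 CPM in T-positive and 64.8 to 130 CPM in T-negative cells. In presomitic-gated cells (290 cells with Tbx6 and Msgn1 and without Sox2) Hes7 stood at 118 ± 18.9 CPM, Rspo3 at 486 ± 78.0 CPM and Fgf8 at 87.4 ± 3.1 CPM. Wnt3a at 19.7 ± 5.68 CPM there was close to the 16.4 CPM of T-positive cells, while Cdx2 was lower at 168 ± 42.9 CPM. The part of cells already leaving for mesoderm in these differences was not tested.

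Without the block 4 genes fell, of which Ptn alone passed when at least 2 UMIs of Nkx1-2 were required. Pou3f1, a POU factor of early neural commitment, was at 41.5, 47.7 and 44.2 CPM in T-positive cells and at 78.9, 81.1 and 64.7 CPM in T-negative cells, with no overlap, and fell with T by 0.75 on the log2 scale (SE 0.10, adjusted p = 0.0293). After thinning to 5000 UMIs the value for Pou3f1 was -0.39 (adjusted p = 0.998 without and 0.755 with the block). Ptn, a secreted heparin-binding growth factor, was at 167, 158 and 154 CPM against 231, 248 and 218 CPM and fell by 0.54 (SE 0.07, adjusted p = 0.0202). Nrcam, a neuronal adhesion molecule, was at 5.47, 5.85 and 4.42 CPM against 10.4, 11.1 and 9.33 CPM and fell by 0.98 (SE 0.15, adjusted p = 0.0482). Sfrp1, the Wnt antagonist, was the other.

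Sox1, Sox3, Irx2, Irx3 and Irx5 fell with T in the fit with the block and did not pass without it, while Irx1, at -0.31 without the block, passed in neither. Sox1, the earliest marker restricted to neural cells, was at 7.36, 6.35 and 5.28 CPM against 15.8, 13.5 and 10.4 CPM, and fell by 1.07 on the log2 scale (SE 0.11, adjusted p = 6.02e-07, against 0.0837 without the block). Sox3 was at 67.0, 41.4 and 39.4 CPM against 99.1, 56.3 and 57.3 CPM and fell by 0.53 (SE 0.05, adjusted p = 7.64e-08). Embryo 1 had more Sox3 on both sides than the other embryos. The Irx genes encode homeobox factors, and Irx2 fell by 0.67 (SE 0.12, adjusted p = 0.00104, but 0.291 in DESeq2 with the block), Irx3 by 0.69 (SE 0.07, adjusted p = 2.53e-07) and Irx5 by 0.52 (SE 0.07, adjusted p = 1.01e-05). Pax6 was low, at 1.20, 2.03 and 1.02 CPM against 3.38, 4.79 and 0.925 CPM, and although it passed with the block (adjusted p = 0.014) embryo 3 did not share its direction and DESeq2 with the block did not call it (adjusted p = 1).

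Of 24 neural plate genes tested out of 30, none rose and 3 fell without the block, 2 rose and 13 fell with it (0 and 10 in DESeq2 with the block), and the median was -0.42. The 2 higher genes, Ncam1 and Cdh2, encode adhesion molecules. Of 9 anterior genes tested out of 20, none passed without the block (edgeR, with 7 at an unadjusted p under 0.05 and 0 called by DESeq2), and 5 fell with it, with a median of -0.51. Of these, Six3 and Otx2 also passed in DESeq2 with the block, and Hesx1, Lhx5 and Pax2 did not (adjusted p = 0.06, 0.727 and 1). Six3, a forebrain factor, was at 9.18, 16.5 and 15.3 CPM against 16.4, 32.2 and 20.9 CPM, and at 89.8 ± 32.5 CPM in the anterior neural gate. When cells with Otx2 were left out of both sides, an alternative added after the data were seen, 64 genes passed without and 622 with the block. Those counts say nothing on Six3, which was not tested there, or on Otx2, which was absent by construction.

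Retinoic acid, made by Aldh1a2 in the somitic mesoderm, opposes FGF at the caudal end, and its genes went both ways. Meis2, a homeobox target, was at 186, 148 and 212 CPM against 306, 200 and 273 CPM and fell with the block by 0.53 on the log2 scale (SE 0.04, adjusted p = 2.16e-08). Rarb, a receptor gene that retinoic acid induces, fell by 0.79 (SE 0.12, adjusted p = 0.000171), and Crabp2, a binding protein, by 0.44 (SE 0.03, adjusted p = 3.08e-09). In DESeq2 with the block Rarb did not pass (0.0698). Rarg, Crabp1 and Aldh1a2 were higher by 0.22 to 0.38 and passed with the block in edgeR and not in DESeq2. Of 18 genes tested none passed without the block (edgeR, with 8 at an unadjusted p under 0.05 and 2 called by DESeq2), 4 rose and 4 fell with it (1 and 3 in DESeq2 with the block), and the median was -0.06.

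BMP, epiblast and adhesion genes showed smaller differences. Msx1, a BMP target, was at 114, 150 and 113 CPM against 62.7, 104 and 78.1 CPM and rose with the block by 0.65 ± 0.05 (adjusted p = 8.2e-09), whereas Id2, another target, fell by 0.38 (SE 0.04, adjusted p = 4.71e-07). After thinning to 5000 UMIs the value for Msx1 was 0.15 without and 0.14 with the block (adjusted p = 0.998 and 0.925). Of 21 BMP pathway genes tested 1 (Fst) rose without the block, 4 rose and 1 fell with it (2 and 1 in DESeq2 with the block), and the median was 0.06. Pou5f1, the pluripotency factor Oct4, was at 326, 192 and 246 CPM against 274, 183 and 227 CPM and rose with the block by 0.16 ± 0.03 (adjusted p = 0.00118), but not in DESeq2 with the block (0.152). Of 14 epiblast genes tested 3 rose and 4 fell with the block, with a median of -0.04, and of 25 genes of epithelial and mesenchymal state 3 rose (Cdh1, Cdh2 and Fn1) and 2 fell (Epcam and Zeb2), with a median of 0.02. In DESeq2 with the block 1 and 3 genes of the epiblast list passed, and of the other list Fn1 alone. None of either list passed without it (edgeR, with 4 and 2 genes at an unadjusted p under 0.05 and 1 and 0 called by DESeq2).

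Cell cycle genes differed little. Of 18 S phase genes 2 fell with the block and none rose, with a median of -0.05 and a range of -0.19 to 0.07, and of 18 genes of G2 and mitosis 2 fell and none rose, with a median of -0.01. The dissociation response list, a sign of handling, had a median of -0.23 over 14 genes, of which Fosb and Jun fell with the block. DESeq2 with the block called none of these 3 lists. No gene of these 3 lists passed without it (edgeR), and 0 were at an unadjusted p under 0.05 or called by DESeq2. Of the genes on the 9 further marker lists of other cell types none passed without the block (edgeR, with 5 of 78 genes at an unadjusted p under 0.05 and 1 called by DESeq2). With it, 2 definitive endoderm, 1 erythroid and 1 endothelial marker rose, and 3 definitive endoderm, 3 surface ectoderm, 1 notochord, 1 allantois and 1 germ cell marker fell. Over all genes tested 3.16% rose and 2.40% fell with the block. The T-positive sum was the lower one in all 3 embryos for the surface ectoderm, definitive endoderm and allantois markers. For the allantois markers the sums of embryo 3 were nearly equal, at 204.5 CPM in T-positive and 204.7 CPM in T-negative cells. The T-positive sum was the higher one in all 3 for the erythroid markers, and the order differed between embryos for the other 5 lists. Over the 3 embryos the ranges of the sides overlapped for each list. Extraembryonic endoderm markers summed to 238 to 953 CPM in T-positive and 274 to 651 CPM in T-negative cells, and cardiac markers to 90.1 to 294 and 102 to 165 CPM. The sums of surface ectoderm markers were 331 to 447 against 409 to 488 CPM, of definitive endoderm markers 597 to 641 against 600 to 684 CPM, and of erythroid markers 42.8 to 146 against 32.4 to 135 CPM. No marker was at 0 on either side, and the notochord markers Shh and Chrd, the endothelial marker Cdh5 and the germ cell markers Prdm14, Nanos3 and Dazl were under 1 CPM on both. The part of other cell types and free RNA in the differences was not tested.

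The levels of these genes were also read along the number of UMIs of T, as a description with no test, since T chose the cells. Cells with 0, 1, 2 to 3 and 4 or more UMIs of T held Wnt3a at 1.54, 6.18, 14.6 and 29.8 CPM as the mean of 3 embryos. Fgf8 was at 19.6, 37.1, 63.0 and 99.8 CPM, and Hes7 at 6.95, 17, 31.4 and 72.2 CPM in the same order. Pou3f1 went down from 74.9 to 53.4, 45.5 and 33.2 CPM, and Sox3 from 70.9 to 58.9, 50.7 and 36.7 CPM. Cells with a single UMI of T thus lay between the cells with none and those with 2 to 3 for each of the 5 genes. Median depth ran from 30591 to 35443 UMIs over the same bins in embryo 1, from 17100 to 22062 in embryo 2 and from 21935 to 30251 in embryo 3.

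**Figure D5:**
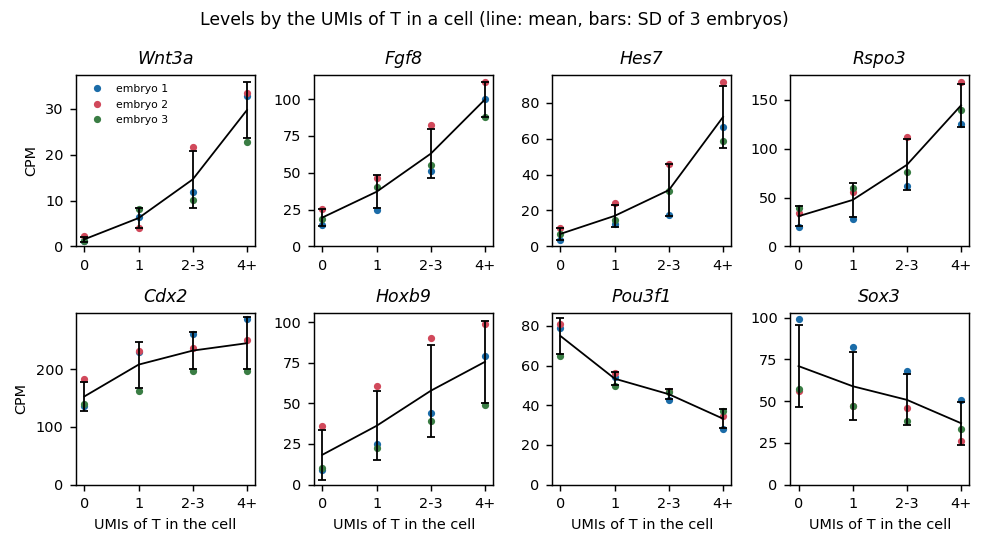
Level (CPM, from 0) of 8 genes in gated cells with 0, 1, 2 to 3 and 4 or more UMIs of T, with 1 point per embryo, a line through the means and bars of 1 SD over 3 embryos. The means of Wnt3a run from 1.54 to 29.8 CPM and those of Pou3f1 from 74.9 to 33.2 CPM, while Cdx2 runs only from 153 to 245 CPM.

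Against T-negative cells, the cells with exactly 1 UMI of T gave no gene past an adjusted p of 0.05 (edgeR). There 287 of 11540 genes were at an unadjusted p under 0.05, a count that does not show a difference. Cells with at least 2 UMIs gave 53 genes, with all 26 among them. All 24 of the 26 genes that could be tested kept their direction in the cells with 1 UMI. After thinning to 5000 UMIs 15 genes passed of 6221 tested, and the 19 of the 26 that were still tested kept their direction, 8 of them past the threshold. Matching left 386, 313 and 338 cells a side with a ratio of median UMIs of 1.00, 1.01 and 1.02, and the direction of all 26 genes was the same there. With the block 51 genes passed after thinning, among them 45 of the 455 genes of the 686 that were still tested. Among the genes that were tested after thinning and passed in neither thinned fit were Pou3f1, Ptn, Hes3, Fgfr2, Dusp6, Il17rd, Lef1, Sox3, Otx2 and Msx1. Lrp8, Epha1 and Rab8b, from the 26 like Pou3f1 and Ptn, passed in neither as well.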

How the data were processed

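Single-cell RNA libraries (10x 3' v3) of 3 embryos were used. Reads had been aligned by the authors (Cell Ranger 3.1.0, mm10 plus an EGFP sequence). Deposited values are raw counts of UMIs for 31054 features per called barcode, taken before quality control. The annotation release and the strand setting of the counting are not given in the sources used here. Coordinates were taken from GENCODE M21, in which 30934 features were found by identifier.

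Barcodes with 1500 to 8500 genes (7500 in embryo 2) and at most 10% mitochondrial UMIs were kept. The study's later removal of clusters was not repeated. Scrublet (scanpy 1.11.5) scored doublets in each embryo, and leaving out the top 6% was an alternative. UMIs were summed per embryo and side, T, Nkx1-2, Sox2, Noto, Foxj1, Foxa2 and Tbx6 were left out of the test, and sums were compared with edgeR 4.0.16 (R 4.3.3, TMM, filterByExpr, quasi-likelihood test, Benjamini-Hochberg over all genes tested). DESeq2 1.42.0, the embryo as a block, other gates, depth matching, thinning to 5000 UMIs, no filters and each embryo left out were alternatives.

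The embryo pairs the sums, since both come from 1 animal. Deviations from the side means correlated at 0.659, 0.511 and 0.509 within embryos, over 12346 genes, which are not independent. The deviations of a gene over the embryos of a side cancel by construction. The values between embryos, -0.436 to -0.0624, are thereby pushed down and say nothing further about pairing. The cells of a sum are not replicates. Without the block the p-values weigh a difference against the spread between embryos. With the block they weigh it against how far the difference between sides varies from embryo to embryo. The fits were tested on simulated data. These data held no effect of the embryo, so they cannot tell whether the fit with or without the block is the better one here.

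The members, the 26 gene lists and the named genes were chosen with earlier results of these data known. Named genes are a core set of 23, up to 12 genes each way with the largest change and a mean of at least 10 CPM, and up to 4 per list. Applying this rule to the fit with the block too was decided after its count was seen. Shared symbols (Aldoa, Hoxd4) were not matched. Some genes of the lists are not reported here by name.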

Additional observations from a re-analysis of the deposited data

Results flagged for a closer look

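EGFP, a reporter added to the reference genome, was counted in libraries of wild-type embryos, where no transgene is labelled. It had 31 UMIs in 21 barcodes of embryo 1 and 32 UMIs in 22 barcodes of embryo 3, and 0 in embryo 2, which allows up to 3 UMIs. None of the 2520 cells of the Nkx1-2 and Sox2 gate held any. No comparison of the report uses this feature.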

How the results depend on the processing

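The number of genes past the threshold, 26 without and 686 with the replicate block, moved with most settings. It was 88 with DESeq2 and 177 with DESeq2 and the block, 12 with at least 2 UMIs of Nkx1-2, and 53 with at least 2 UMIs of T. With exactly 1 UMI of T it was 0 (287 of 11540 genes at an unadjusted p under 0.05). It was 64 with Otx2 at 0 and 622 with the block as well, and 59 with matched total UMIs and 724 with the block. With no filter on low counts it was 114, and after thinning it was 15 and 51 with the block. Without a gene maximum it was 25, without barcodes low in mitochondrial UMIs 25 and without high doublet scores 27. Leaving out 1 embryo gave 0 to 7 genes without the block. With the replicate block it gave 521, 719 and 648 without embryos 1, 2 and 3, in fits that leave very little to estimate spread from. Settings with Otx2 at 0, with exactly 1 UMI of T, with DESeq2 and the block, and with the block and 1 embryo left out were chosen after seeing the data. The 26 genes kept their sign in all 22 settings wherever they were tested, and the 686 kept theirs except in the thinned settings, in those with Otx2 at 0 and with exactly 1 UMI of T. Among the other named genes the log2 fold change of Cyp26a1 turned to 0.0947 with at least 2 UMIs of Nkx1-2, 0.509 and 0.484 with Otx2 at 0 without and with the block, 0.0304 with at least 2 UMIs of T and 0.118 and 0.129 after thinning. With 1 embryo left out it ranged from -0.195 to 0.184, and was 0.164 without embryo 1 and with the block. The log2 fold change of Wnt8a turned to 0.0048 with DESeq2 and the block, 0.0524 with at least 2 UMIs of T, 0.15 and 0.156 with matched UMIs, 0.0106 with the block, 0.0431 and 0.0581 after thinning, and 0.0242 without high doublet scores. With 1 embryo left out it ranged from -0.0435 to 0.0595, and was 0.0611 without embryo 2 and with the block. The log2 fold change of Krt18 turned to 0.0558 and 0.066 with Otx2 at 0, and the log2 fold change of Birc5 to 0.00968 and 0.00772 after thinning. None of these turned values passed, and the cause was not tested. Genes too low on both sides for the filter on low counts, such as Msgn1, were not tested in the fits that used it.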

Other observations

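Genes outside the lists were named by the size of their change. Cxcl12, a chemokine, was at 32.2, 19.7 and 31.9 CPM in T-positive and at 62.5, 38.3 and 49.3 CPM in T-negative cells, with no overlap, and fell with the block by 0.84 on the log2 scale (SE 0.07, adjusted p = 1.03e-08). Apln, a peptide ligand of the apelin receptor, was at 46.7, 31.8 and 35.1 CPM against 16.2, 19.1 and 20.3 CPM and rose without the block by 1.04 ± 0.15 (adjusted p = 0.0387). Epha1, an ephrin receptor gene, was at 61.1, 48.4 and 39.7 CPM against 23.3, 26.9 and 23.3 CPM (1.03 ± 0.14, adjusted p = 0.0339), and Efna1, a ligand, rose by 1.34 ± 0.21 (adjusted p = 0.049). Epha5, from the caudal list, rose with the block by 1.67 ± 0.14 (adjusted p = 2.16e-08). Sprr2a3 also passed (adjusted p = 0.049) at 1.02 to 2.30 CPM against 0.0563 to 0.252 CPM, and it belongs to a family of near-identical genes among which reads may have been split.

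Hoxaas3, a noncoding RNA of the Hoxa cluster whose annotation overlaps Hoxa genes, was at 133 CPM in the T-negative cells of embryo 2 and at 23.8 and 28.8 CPM in those of embryos 1 and 3, and at 184, 332 and 153 CPM in T-positive cells of embryos 1, 2 and 3 (2.08 ± 0.15 with the block, adjusted p = 2.46e-09). Embryo 2 was highest on both sides. For Epha5 the T-negative cells of embryo 2 were at 48.4 CPM against 9.69 and 14.7 CPM. Glycolysis genes, which are graded along the tail of older embryos, differed slightly: of 19 tested none passed without the block (edgeR, with 1 at an unadjusted p under 0.05 and 0 called by DESeq2), and 8 fell with it, among them Tpi1 and Pgam1, with a list median of -0.06. DESeq2 with the block called 3 of the 8, and the lactate transporter gene Slc16a3 was not among them (0.0991). Slc16a3 was at 124, 117 and 115 CPM against 138, 144 and 127 CPM (-0.20 ± 0.04, adjusted p = 0.00083).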
